A study of Mus musculus with 15 samples.

Results

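In this array series on mouse liver development, 39 probes for exons of long intergenic noncoding RNAs (lincRNAs) gave their highest mean signal in the earliest fetal liver sampled, at least 2-fold above every later stage. Liver of C57BL/6 mice was sampled at 3 embryonic stages (E12.5, E14.5 and E17.5, in days of gestation), in neonatal animals and in adults of 8 weeks, with 3 arrays per stage and 15 in all. The labels name no treatment or genetic change for any group, and do not say whether an array held the RNA of 1 animal or of several, so the spread between arrays may be partly technical. RNA was amplified along whole transcripts by random priming, labelled with Cy3 and hybridised to 1-colour Agilent arrays.

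The probes were chosen from their own signal. A lincRNA exon probe was kept if the scanner software called it well above background on the 3 arrays of any stage, if its E12.5 mean exceeded the highest of the other 4 stage means by at least 1 on the log2 scale (2-fold), and if its E14.5 mean exceeded the higher of the neonatal and adult means by less than 1. Levels are log2 of the processed signal minus the 75th percentile of the same array, so 0 marks that percentile. The array carried 3457 lincRNA exon probes, 1874 of them passed the background filter, and 43 met the E12.5 threshold. Of these, 39 met the E14.5 condition as well, and 4 (11957-, 11970-, 11730- and 12121+) were also raised at E14.5. Since the stage means set the choice, the height of E12.5 over the other stages is given as a description, with no test.

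LincRNAs are transcripts that lie between protein-coding genes, carry no long open reading frame and are often spliced and polyadenylated. Many are made in a single tissue or for a short time in development, and most have no known function. The liver bud forms from foregut endoderm. At the earliest stage sampled here its hepatoblasts, the shared precursors of hepatocytes and bile duct cells, are dividing, and the organ is being filled by blood-forming cells. Later in gestation the fetal liver is the main site of red cell production, and around birth blood formation moves to the bone marrow. In whole liver, fewer cells of a type and less RNA per cell cannot be told apart.

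Each probe is named on the array only by an exon number and a plus or minus sign. The sources used here give neither the gene, the coordinates nor the sequence behind these names, so no sequence is printed, and the numbers and signs are used as given. The 39 probes carry 38 exon numbers: 29 have a minus sign and 10 a plus sign, and 10321 is the one number present with both. The share with a minus sign was 74.4%, against 53.9% of the lincRNA exon probes that passed the filter.

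Libraries that stood apart touch several of these probes. On E12.5 replicate 1, a block of spots near one edge of the array was bright whatever the probe. Of 149 probes that exceeded every other array by more than 3 log2 units there, 122 lay in rows 270 to 300 and columns 1 to 20. Among the chosen probes, 12114-, 11853+ and 11496- lay inside that patch. On E17.5 replicate 1, 80.9% of noncontrol spots and 55.8% of negative-control spots were called well above background, against 50.9% to 62.9% and 4.0% to 9.58% on the other 14 arrays. The file headers carry 2 scan dates, and arrays that share a date are called a slide here. The slide itself was not read from the headers. The first slide held all E12.5 and E14.5 arrays with E17.5 replicates 1 and 2. The second held E17.5 replicate 3 with all neonatal and adult arrays. Of 78 marker genes for the cell types that liver could hold, 9 could be named on the array. None marks hepatocytes, macrophages, stellate cells or bile duct, so the tissue label could not be checked against its defining genes. Tfrc, the transferrin receptor of red cell precursors, had an E12.5 mean 0.02 above its next highest stage, Tuba1b 0.20 above and H2ac19 0.25 above, and the other 6 were not highest at E12.5. Their part in the results below was not tested.

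**Figure D1:**
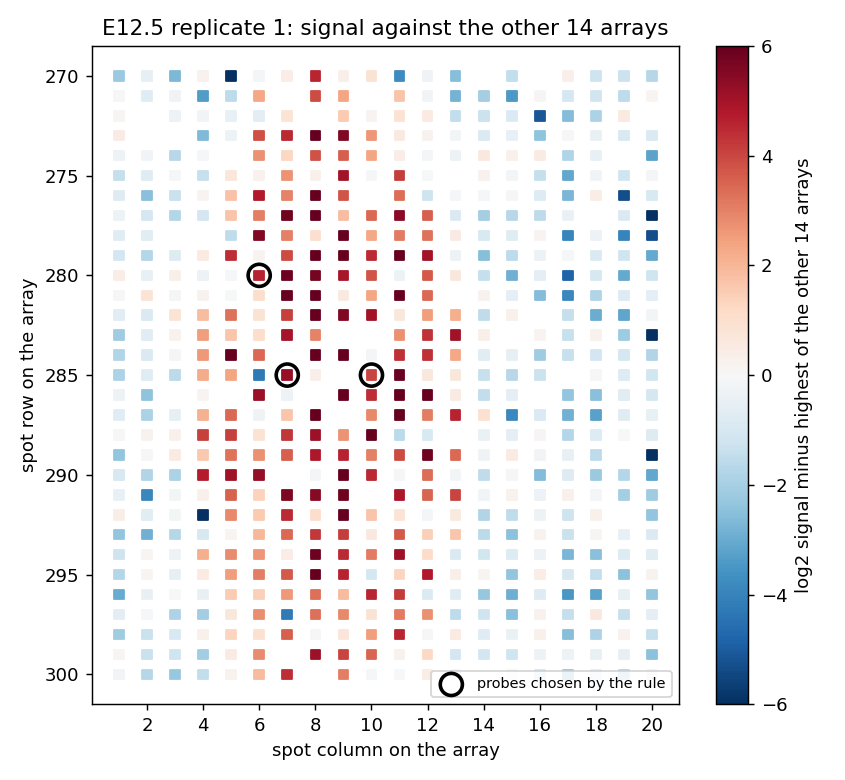
Spots of E12.5 replicate 1 in rows 270 to 300 and columns 1 to 20, coloured by log2 level minus the highest level of the same probe on the other 14 arrays. The 3 circled spots are 12114-, 11853+ and 11496-, which lie among bright spots of other probes.

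The 3 patch probes were high on that array alone. Probe 12114- read 2.51 on E12.5 replicate 1 and -2.74 and -3.12 on replicates 2 and 3. Probe 11853+ read 2.42, -3.51 and -3.28 on the E12.5 arrays, and 11496- read 2.42, -2.71 and -2.99. On replicates 2 and 3, 11853+ and 11496- lay within the range of their 12 later arrays and 12114- was level with the highest of them, at -2.74, or lower. Spots within 3 rows and columns of them had a median excess over the other 14 arrays of 3.25, 4.33 and 1.86 on replicate 1. Their E12.5 SD was 3.15, 3.36 and 3.05, and without replicate 1 the E12.5 excess of 11853+ and 11496- over the next stage turned to -0.39 and -0.55. These 3 probes met the rule only through replicate 1, and the E12.5 label does not describe them. The other 36 are given separately below wherever it matters.

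Over the 39 probes, the E12.5 mean exceeded the next highest stage mean by a median of 1.55 (1.53 for the 36 outside the patch), from 1.00 to 4.22. The excess reached 1.5 for 20 probes, 2 for 13 and 3 for 8. The next highest stage was E14.5 for 11 probes, E17.5 for 7, neonatal for 10 and adult for 11, so no single later stage came second. Measured stage by stage, the median E12.5 excess was 1.94 over E14.5, 2.03 over E17.5, 2.21 over neonatal and 2.75 over adult liver. On 30 probes all 3 E12.5 arrays lay above all 12 later arrays, all of them outside the patch. That arrangement held for 4.85% of all tested probes and for 3.58% of tested lincRNA exon probes, and the rule used these levels. Restricted to the first slide, the E12.5 mean exceeded both the E14.5 mean and the mean of the 2 E17.5 arrays there by at least 1 for 36 of the 39, the patch probes among them, and by 0.63 at the lowest. The rule had already required the E14.5 part and bounded the E17.5 mean. That count is thus largely set by the choice and is no test of the slide.

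**Figure D2:**
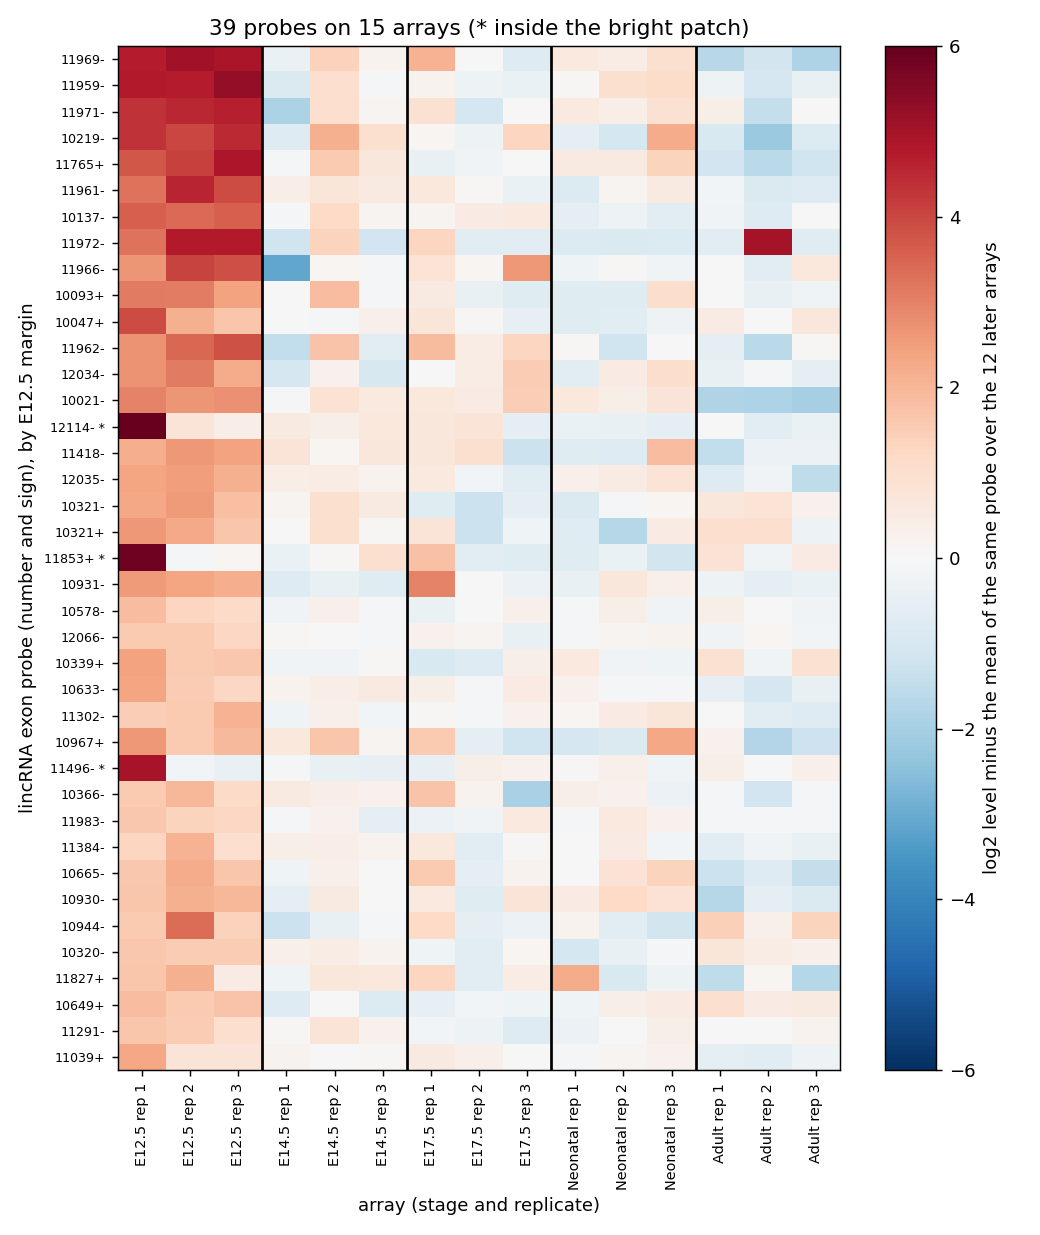
Each row is 1 of the 39 probes and each column 1 of the 15 arrays, and colour gives the log2 level minus the mean of the same probe over its 12 later arrays. The E12.5 columns are red in nearly all rows. The 3 rows marked with an asterisk are red on replicate 1 only, and 11972- is also red on adult replicate 2.

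The largest E12.5 excess belonged to 11969-, which was near background later. Its levels were 1.20, 1.52 and 1.36 on the E12.5 arrays and -3.94, -2.13 and -3.30 on the E14.5 arrays. It read -1.44, -3.48 and -4.29 on the E17.5 arrays, -2.92, -3.07 and -2.58 on the neonatal arrays, and -5.19, -4.61 and -5.37 on the adult ones. All 3 E12.5 arrays lay far above the other 12, and no adult array was well above background. The E12.5 mean was 18.6-fold the neonatal mean, its next highest stage.

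Probe 11959- read -0.24, -0.28 and 0.31 at E12.5. On the 12 later arrays it was never well above background and lay between -5.98 and -3.87. Since those readings only bound its level, E12.5 was at least 8.16-fold higher than E17.5, the stage with the highest bound. A bound sets the E12.5 mean against a mean over the 3 arrays of a stage, taking on each array the dimmest reading of any probe called well above background, or the reading of the probe itself where that was higher. The measured difference from neonatal liver, the next highest mean, was 4.19. All bounds given here hold for the processed signal only, and another background correction can give a smaller fold.

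Probe 11971- read 1.75, 1.95 and 2.07 at E12.5 and between -4.48 and -1.57 afterwards, 14.7-fold below at its next highest stage. Unlike the previous probe it stayed measurable later: 3 neonatal arrays and 2 arrays of each of the other later stages were well above background.

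Probes 10219- and 11765+ were well above background on all 15 arrays, so their fold changes rest on measured values throughout. Probe 10219- read 3.01, 2.68 and 3.15 at E12.5. It gave -2.08, 0.79 and -0.37 at the next stage and, at E17.5, -1.19, -1.63 and -0.04. Neonatal arrays read -1.88, -2.36 and 0.89 and adult arrays -2.24, -3.56 and -2.13. The later stages varied widely between arrays, with SDs above 1 at E14.5 and in neonatal liver, and still none reached E12.5. The E12.5 mean was 11.3-fold the E14.5 mean. Probe 11765+ read 3.01, 3.37 and 4.15 at E12.5. The E14.5 arrays gave -0.76, 0.87 and -0.03, and the E17.5 arrays -1.17, -0.92 and -0.72. Neonatal arrays read -0.17, -0.17 and 0.62 and adult arrays -1.86, -2.32 and -1.93. Its E12.5 mean was 10.7-fold the neonatal mean, and all 3 adult arrays lay below every other array.

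Of the next probes by size, 11961- read -0.11, 1.23 and 0.55 at E12.5 and no higher than -2.61 later, and E12.5 was 10.3-fold its next highest stage. Probe 10137- had a narrow E12.5 range of 0.31 to 0.52 and read between -3.83 and -1.89 afterwards, for a factor of 8.57. Probe 11966- read -0.11, 1.33 and 1.13 at E12.5, and 1 later array, E17.5 replicate 3, came close at -0.13. Probe 10093+ read 0.29, 0.20 and -0.42 at E12.5 and came closest at -0.98 on E14.5 replicate 2. The groups did not overlap for any of these 4.

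The size of these excesses depended on the background correction. With normexp, whose offset compresses dim signals, the log2 excess was 2.58 for 11969-, 1.83 for 11959-, 2.87 for 11971-, 2.89 for 10219- and 2.97 for 11765+. It was 2.15 for 11961-, 1.86 for 10137-, 1.58 for 11966- and 1.37 for 10093+. All 9 stayed above 1, while the folds were smaller than those given above, and for 11959- smaller than its bound. These 9 were among the probes with the largest excess. Most of the 39 did not meet the rule with normexp, as counted in the last section.

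**Figure D3:**
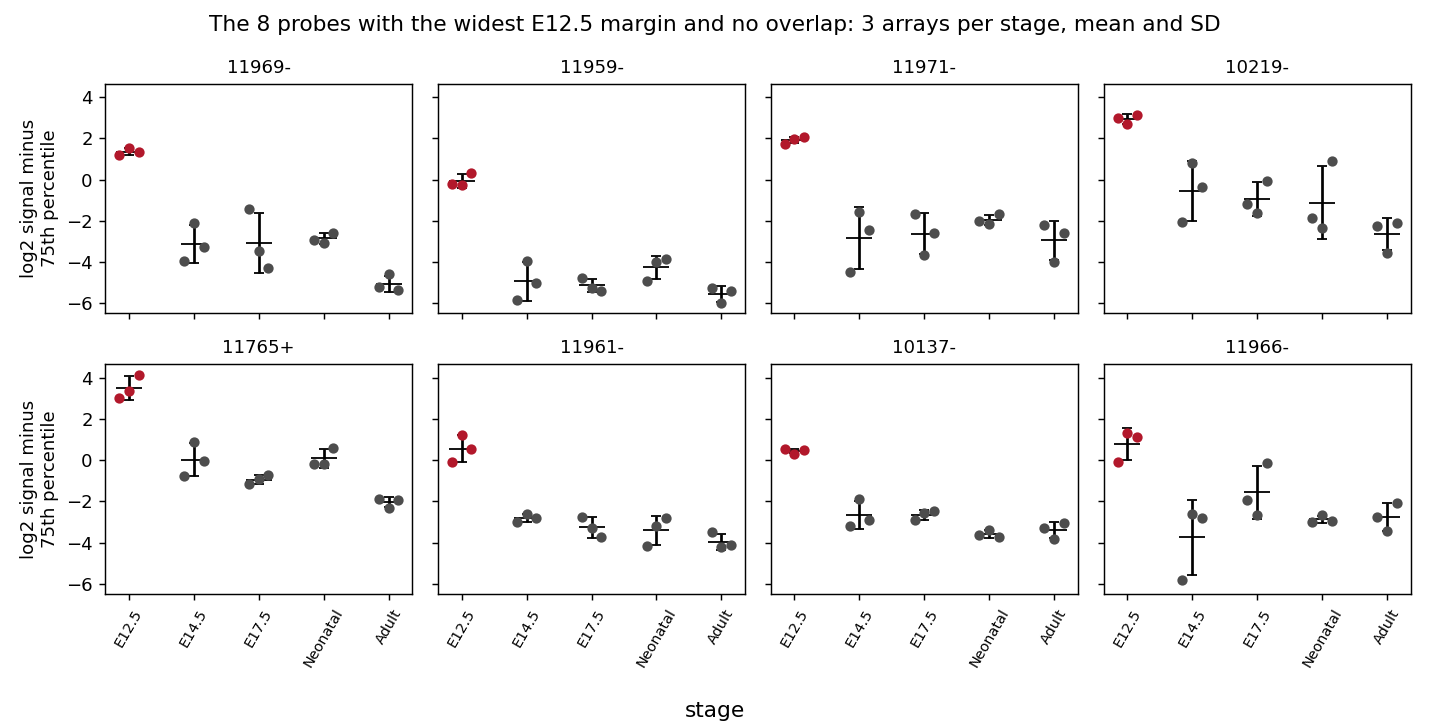
Log2 level relative to the array's 75th percentile (vertical axis) at each stage (horizontal axis) for the 8 probes with the largest E12.5 excess and no overlap. Dots are the 3 arrays of a stage, red at E12.5, and bars show the mean and SD. E12.5 lies above every later array in each panel.

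At the dim end of the list, background limits what can be said. Of the 39 probes, 16 were well above background on all 15 arrays (41.0%, against 56.1% of the tested lincRNA exon probes), 20 on 1 to 11 of the later arrays and 3 (11959-, 10047+ and 12034-) on no later array. Probe 10047+ read -0.54, -2.31 and -2.78 at E12.5, so replicate 1 was much higher than the other 2, and E12.5 was at least 2.33-fold E17.5, again the stage with the highest bound. For 12034-, which read -2.11, -1.72 and -2.60 at E12.5, the bound against E17.5 was at least 1.94-fold, below the factor of 2 that the measured means gave. With such bounds in place for the stages with no array above background, 36 of the 39 kept a factor of at least 2. The patch probes 12114-, 11853+ and 11496- were among them, so these are not the 36 outside the patch. The 3 probes with a factor below 2 were 12034-, 10931- at 1.61 and 11827+ at 1.90.

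Other probes stayed well above background at every stage with a smaller excess. Probe 10021- read 2.05, 1.75 and 1.84 at E12.5 and between -1.03 and 0.55 on the E14.5, E17.5 and neonatal arrays, a factor of 3.81 over its next stage. Probe 10339+ read 6.42, 5.56 and 5.61 at E12.5 and 3.06 to 4.90 later, a factor of 2.55. Neither overlapped.

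6 probes outside the patch had later arrays that reached into the E12.5 range. Probe 11972- read -1.36, 0.16 and 0.16 at E12.5, and adult replicate 2 read 0.39 while the other adult arrays read -5.24 and -5.36. Without that array the E12.5 excess of 11972- moved from 3.06 to 4.29. For 10931- the overlapping array was E17.5 replicate 1 at -2.07, against -5.03 and -5.41 on the other E17.5 arrays, and for 10366- it was the same array at -1.80. That is the array with raised dim signals, and its part in these overlaps was not tested.

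At the threshold, the probes inside and outside differed little. The 3 just inside were 11039+ at 1.00, 11291- at 1.03 and 10649+ at 1.05. The 3 just outside were 10154- at 0.98, 10534- at 0.96 and 12033- at 0.94. Probe 11039+ owed its place to E12.5 replicate 1, where it read 0.36 against -1.19 and -1.20 on the others, although it lay outside the patch. On the second condition, 12114- was just inside, its E14.5 mean 0.86 above neonatal and adult liver, and 11957- just outside at 1.01.

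Of the 39 probes, 7 carry exon numbers within a single stretch. The minus-sign probes 11959, 11961, 11962, 11966, 11969, 11971 and 11972 all met the rule, and they include the 3 with the largest E12.5 excess. Between 11959 and 11972 the array has 14 minus-sign probes, of which 9 passed the background filter. E12.5 exceeded the next stage by at least 1 on 11 of the 14, with a median of 2.26. Besides the 7, these were 11970-, which missed the E14.5 condition, and 11963-, 11964- and 11967-, which were too dim for the filter. Probe 11960- differed: it read 0.33, 0.32 and -0.29 at E12.5 and more, 1.16, 0.87 and 0.64, at E14.5.

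The plus-sign probes of the same 14 numbers are given as a description. Minus-sign probes that met the rule set the stretch, so a difference between the signs there is partly set by that choice and is no test. None of the plus-sign probes had an E12.5 excess of 1, their median was -0.94, and 11 were at background on all 3 E12.5 arrays. Of the 4 that passed the filter, 11959+ and 11964+ had their highest mean in adult liver, and 11967+ and 11972+ theirs in neonatal liver. For 11967+ that rested on neonatal replicate 1, at 1.07. Replicates 2 and 3 read -3.06 and -2.91, below every adult array. For 11972+ the stage means after E12.5 differed little, from 0.24 to 0.40. Probe 11959+ was at background on all 3 E12.5 arrays and read -1.80, -1.95 and -1.86 in adult liver.

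**Figure D4:**
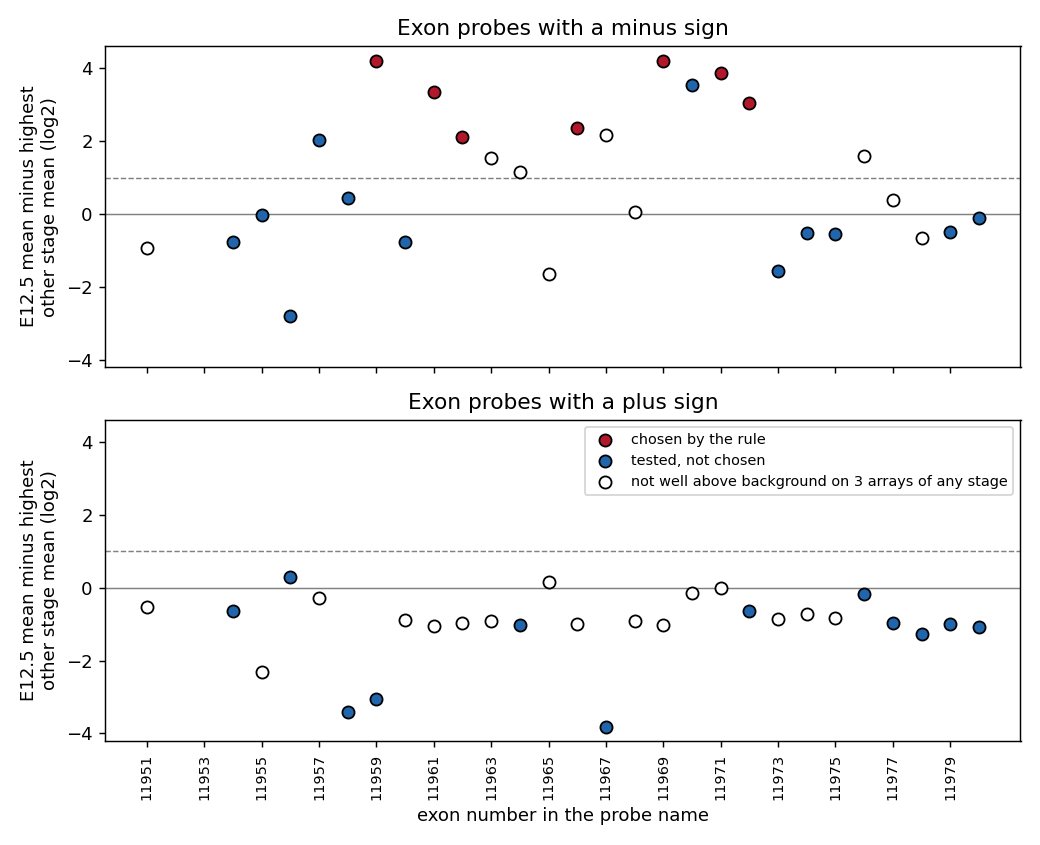
E12.5 mean minus the highest other stage mean (log2, vertical axis) against the exon number in the probe name, for minus-sign (top) and plus-sign (bottom) probes. Red dots met the rule, blue dots passed the background filter only and open dots did not pass it. The dashed line marks 1, which 11 of 14 minus-sign probes and no plus-sign probe between 11959 and 11972 reached. Minus-sign probes that met the rule set this stretch, so the difference between the signs is no test.

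Across all 15 arrays the 7 probes of this stretch had a median pairwise correlation of 0.82 (21 pairs, from 0.58 to 0.97). The E12.5 arrays that the rule used weigh on that value, and over the 12 later arrays the median was 0.29. Over all tested lincRNA exon probes, same-sign probes with consecutive numbers had a median correlation of 0.20 (921 pairs). It was 0.13, 0.06 and 0.12 for numbers 2, 3 and 4 apart and 0.03 for numbers 100 apart (783 pairs). Probes of the same number and opposite sign also had 0.20 (522 pairs), so this likeness was not particular to a shared sign. All of these correlations come from the same arrays. Counting same-sign numbers at most 4 apart as a run, the list held 3 more runs, 10320-/10321-, 10930-/10931- and 12034-/12035-, so 13 of the 39 probes lay in 4 runs. The runs and the gap were chosen after the values were seen.

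The same rule was applied to the probes of the other sign, and 10321 passed it with both. The other 37 partners are those that failed it, so their lack of an E12.5 excess is no result. Of these 37, 22 were above background on no E12.5 array and 17 passed the filter. At 10137 the minus-sign probe read 0.52, 0.31 and 0.50 at E12.5 and at most -1.89 later. Its plus-sign partner read 2.27, 1.27 and 1.98 at E12.5 and kept 2.64, 2.45 and 2.49 at E14.5. From E12.5 to E14.5, limma called 28 of the 39 chosen probes lower at an adjusted p under 0.05 and 4.93% of all tested probes, a count that follows from the rule and supports nothing.

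Leaving an E12.5 array out of the choice gives a description of that array for probes chosen without it. The later arrays on the other side of the difference were those that made the choice. The counts below are thus partly set by it and are no test. Chosen without replicate 1, 32 probes met the rule, and on replicate 1 itself 26 of them exceeded the highest later stage mean by at least 1 and 31 by more than 0. Without replicate 2 the rule chose 36, of which 26 and 32 did so on replicate 2. Without replicate 3 it chose 45, of which 27 and 40 did so on replicate 3. Over all tested lincRNA exon probes, the shares above by at least 1 were 4.38%, 3.09% and 2.13% on these 3 arrays, and the shares above by more than 0 were 38.4%, 18.3% and 13.3%. Of the 3 E12.5 arrays, replicate 1 gave the highest value for 66.5% of tested lincRNA exon probes and for 16 of the 36 chosen ones outside the patch.

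Within E14.5, the arrays differed along the same probes. Outside the patch, E14.5 replicate 2 gave the highest of the 3 values for 28 of 36 probes and replicate 1 the lowest for 24. The median level on replicate 2 was 0.60 above the mean of the other 2 arrays, against 0.02 over all tested lincRNA exon probes. For 6 probes replicate 1 lay at its lowest possible reading, -5.83, where values have no order. Among the 15 probes outside the patch that were above background on all 15 arrays, replicate 2 was highest for 11, with a median difference of 0.50. It was highest for 34.2% of the 1051 lincRNA exon probes measured that fully. Neonatal replicate 3 was highest for 23 of the 36 probes (24.8% of tested lincRNA exon probes), and E17.5 replicate 1, with its raised dim signals, for 20 (34.5%). These orders are descriptions of single arrays, with no test.

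The stages after E14.5 were compared in 1 limma fit over all 37361 probes that passed the filter, with Benjamini-Hochberg adjustment over all of them and calls at an adjusted p under 0.05. The means of these stages entered the rule too. Each was bounded from above by E12.5, and the higher of neonatal and adult was bounded from below by E14.5. Shares and medians of the 39 set beside those of all tested probes may thus partly follow from the choice. The 3 comparisons share arrays, so they are not independent of each other. In each of them 17 of the 39 probes were well above background on all 6 arrays. Among the 37361 tested probes that held for 26319 to 28629. Dim readings thus weigh more on the 39, and a low count of calls among them does not show stable levels.

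From E17.5 to neonatal liver, limma called none of the 39 probes, against 18.1% of all tested probes. Of the 39, 5 were above background on no array of either stage. Unadjusted p was under 0.05 for 3 of the 39, 1 higher and 2 lower in neonatal liver, and the lowest adjusted p was 0.0586. The median change was 0.03 (0.06 outside the patch). Single changes ranged from -1.57 to 1.03. Without E14.5 replicate 2, which enters only through the shared spread, 1 probe was called lower, and with the second slide alone 1 probe was also called lower.

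From neonatal to adult liver, 9 of the 39 probes were called, 1 higher and 8 lower in the adult, a share of 23.1% where 25.9% of all tested probes were called and 13.4% called lower. All 6 arrays lay on 1 slide. The median change of the list was -0.53 (-0.55 outside the patch), against 0.17 for all tested probes and 0.39 for the other lincRNA exon probes, of which 251 were called higher and 120 lower. None of the 9 lay in the patch. Without adult replicate 3 the count was 5, with 4 lower.

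The largest fall was that of 10021-, from -0.28, -0.57 and -0.13 in neonatal liver to -2.73, -2.75 and -2.92 in the adult. The arrays did not overlap, and the change was -2.48 ± 0.30 (SE, n = 3 and 3; limma, adjusted p = 3.09e-05), a 5.57-fold drop between measured levels. It was called under all 25 alternatives, with adjusted p from 5.7e-06 to 0.000604 and a change from -2.60 to -1.13, the smallest with normexp. Probe 11765+ fell from -0.17, -0.17 and 0.62 to -1.86, -2.32 and -1.93, a change of -2.13 ± 0.40 (limma, adjusted p = 0.00136), and was also called under all 25, with adjusted p from 0.000424 to 0.00932 and a change from -2.26 to -1.27. Both were thus lower after E12.5, by the rule, and fell again between neonatal and adult liver.

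Probe 11969- passed the test too, at -2.20 ± 0.59 (limma, adjusted p = 0.0141). As no adult array was above background, the neonatal level was at least 1.44-fold higher on the processed signal. Over the 23 alternatives the change ran from -2.42 to -0.18, so that bound does not hold under all of them. The call was lost without neonatal replicate 3 and without adult replicate 3, and with normexp background correction, where the adjusted p was 0.507, the highest of 23 alternatives. Probes 10930- (at least 1.48-fold), 10665- (at least 1.17-fold), 12035- and 11302- were called lower as well, and all 4 calls were lost with normexp. The call of 12035- was also lost without adult replicate 3. That of 11302- was lost with no filter and without neonatal replicates 2 or 3 or adult replicates 2 or 3, 1 at a time. Probe 11959- was called at an adjusted p of 0.0388 by limma, but was above background on no array of either stage, so it has no fold and no order there. The single probe called higher was 10320-, which rose from -2.36, -1.75 and -1.36 to -0.58, -0.86 and -0.98 with no overlap, a change of 1.02. That call was lost without neonatal replicate 1 and without adult replicate 1.

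From E17.5 to adult liver, 9 of the 39 probes were called, 3 higher and 6 lower (23.1%, against 35.4% of all tested probes, with 16.3% called lower). The median change was -0.58 (-0.64 outside the patch), against 0.06 over all tested probes. This comparison crosses the slides: with slide as a block 3 probes were called, all lower, and on the second slide alone, with 1 E17.5 array, 5, all lower. The count was 3 without E17.5 replicate 1 (1 lower), 3 without adult replicate 1 (2 lower) and 5 without adult replicate 3 (3 lower). With normexp background correction 5 were called, 4 higher and 1 lower, and with the 75th percentile taken over probes measured on all arrays 10, 2 higher and 8 lower.

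Probe 10021- again led, falling from -0.29, -0.40 and 0.55 at E17.5 to the adult values above, by -2.75 ± 0.30 (SE; limma, adjusted p = 7.63e-06), or 6.75-fold. With slide as a block the change was -3.35 (adjusted p = 1.98e-05), and it was called under all 25 alternatives, with adjusted p from 1.06e-06 to 0.000211 and a change from -3.35 to -1.40. Probes 11969- (at least 1.25-fold) and 10665- were called lower but not with slide as a block, where adjusted p was 0.472 and 0.156. Both calls were also lost with normexp and without E17.5 replicate 1, adult replicate 1 or adult replicate 3. Probe 10321- rose most, from -1.53, -2.06 and -1.37 at E17.5 to -0.10, 0.02 and -0.54 in the adult, by 1.44 ± 0.33 (limma, adjusted p = 0.00357, and 0.0793 with slide as a block). It had read 1.51, 1.78 and 1.04 at E12.5, so its adult values lay between those of E12.5 and E17.5. Its neighbour in number 10320- rose by 0.76 and 10649+ by 0.97, and with slide as a block neither was called (adjusted p = 0.498 and 0.102). The call of 10320- held under 9 of 25 alternatives, and that of 10649+ was also lost without adult replicate 1.

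**Figure D5:**
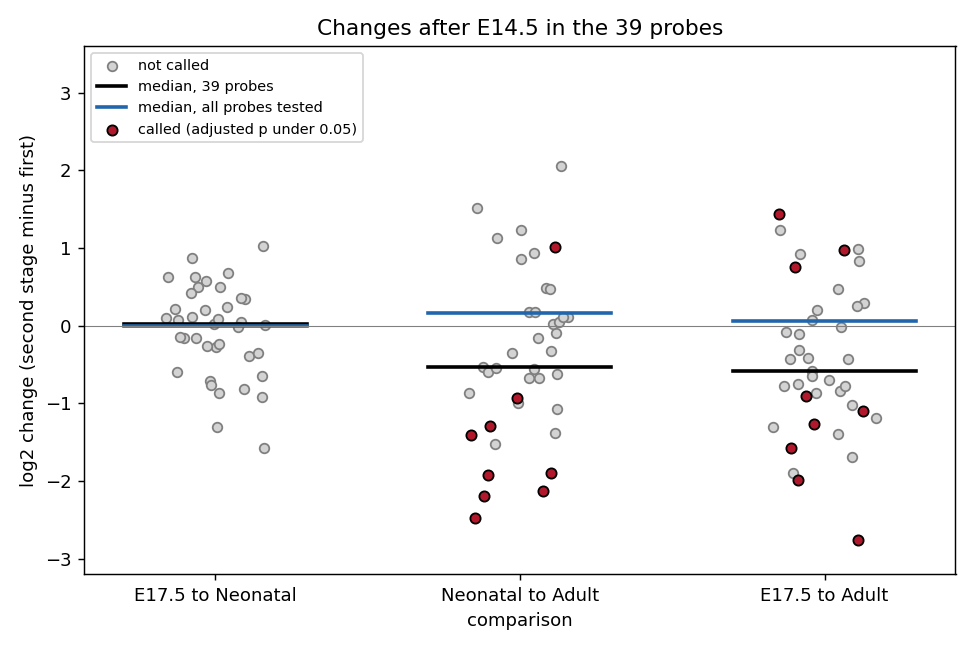
Log2 change of each of the 39 probes (dots) in the 3 comparisons after E14.5, with called probes in red. Black lines give the median of the 39 (0.03, -0.53 and -0.58) and blue lines that of all tested probes.

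Among 1772 tested probes that have a name and are not lincRNA exon probes, the 3 nearest over the 15 arrays were taken for each of the top 3. By Pearson correlation, 11969- was nearest to CB193518 (0.90), BC156060 (0.89) and uc.479+ (0.88), the last a probe for an ultraconserved element, a stretch of DNA identical between distant mammals. Probe 11959- was nearest to AK052246 (0.91), uc.479+ (0.86) and AF416735 (0.85), and 11971- to AK052246 (0.93), uc.479+ (0.90) and uc.452- (0.85). Probe uc.479+ stood among the nearest 3 for all 3. Its stage means were -0.70 at E12.5 and -3.28, -2.65, -3.34 and -3.70 afterwards. These correlations are descriptions over 15 shared arrays picked from many candidates. The E12.5 arrays that the rule used weigh on them, so a probe high at E12.5 tends to rank high.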

How the data were processed

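Per the labels' protocols, RNA was depleted of ribosomal RNA and random-primed. Per the file headers, the deposited spot intensity values (processed signal, median signal and background) come from Feature Extraction 11.0.1.1 on a probe grid built on mm9, while the submitters' processing notes name version 10.7.3.1. The authors' deposited table gives a log2 value per probe and array, ordered alike within each array; its normalization is not given in the sources used here. Control and outlier spots were left out, spots of a probe averaged, and each array's 75th percentile over noncontrol probes subtracted from log2. Well-above-background flags are those of the scanner software (deposited as 0 or 1, another kind of value). Stages were compared with limma 3.58.1 (R 4.3.3), which recovered all 100 changes of 2 and all 100 of 3 log2 units simulated for the neonatal to adult comparison over 37361 features. The simulated noise was normal with the same spread for every probe, unlike in the data, and no smaller change was simulated. That recovery checks the code and does not give the power for these probes. The number of arrays limits the precision.

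The probes, lists and tests were chosen with earlier results of these data known. Named were the 12 probes with the largest E12.5 excess and no overlap, those next to each threshold, up to 3 called each way per comparison, the 3 most variable at E12.5, and the nearest probes of the top 3. Others (10021-, 10339+, 10931-, 10366-, 11827+, the 4 with raised E14.5 and those of the number runs) were named after their values were seen. Neighbours by coordinates could not be compared, since the names carry none. Normexp ran on the median signal, since the files used here give no mean signal column.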

Additional observations from a re-analysis of the deposited data

How the results depend on the processing

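The rule chose 39 probes, and 37 of these again under quantile normalization. It chose 17 (15 shared) with normexp correction, whose offset compresses dim signals, 21 with the authors' table, where 18 of the 39 had values and all 18 were chosen, and 16 where all 15 arrays had to be above background. A threshold of 1.5 left 20 and one of 2 left 13. Leaving out single arrays gave 32 to 45. From E17.5 to Neonatal, 0 probes were called, against 1 with quantile normalization, with the percentile over probes above background on all 15 arrays (which moved the median of all probes from 0.00 to -0.16) and on the second slide only, and 0 to 1 without single arrays. From Neonatal to Adult, 9 were called, against 3 with normexp, 5 with the authors' table, 5 with all 15 arrays above background and 5 to 12 without single arrays. From E17.5 to Adult, 9 were called, against 5 with normexp, 5 with no filter, 3 with slide as a block, 5 on the second slide only and 3 to 10 without single arrays. Of 473 E12.5 excesses of 22 named probes under alternatives, 445 stayed within 1 SD, 26 moved further and 2 reversed, 11853+ to -0.39 and 11496- to -0.55 without E12.5 replicate 1 (highest without single arrays, 2.58 and 2.15). Of the 473, 29 fell below 1, the threshold of the rule. The rule chose on these excesses, so the number that stayed is a description and no support. With the replicate number as a block the counts were 0, 9 and 8. Same-number arrays did not deviate together in most pairs (30 pairs, r from -0.243 to 0.478, 7 over 0.1). E12.5 with adult gave 0.478 for replicate 1, 0.268 for replicate 2 and 0.054 for replicate 3. The comparison with neighbours by coordinates was not run. Signal over background limits the dim probes, 20 of which were measured on only part of the later arrays.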
